A study of Mus musculus with 10 samples.

Results

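Mitogen-activated protein kinase (MAPK) cascades and dual-specificity phosphatases (Dusp) were examined in the gastrocnemius (GAS) of mice with diet-induced obesity (DIO) after treatment with an antisense oligonucleotide (ASO) against microRNA-22 (miR-22). The members were the genes whose symbol is Mapk, Map2k, Map3k, Map4k or Dusp followed by a number, without the p38 genes Mapk11 to Mapk14, their activators Map2k3 and Map2k6, and Dusp3. Of 21098 genes in the table, 59 met this rule, namely 9 Mapk, 5 Map2k, 18 Map3k, 5 Map4k and 22 Dusp genes. All mice were wild-type C57BL/6J males that received the high fat diet D12492i from 9 weeks of age, for 9 weeks before treatment and, per the study's methods, also during it. The treated group (ASO, RES-010 in the labels) received weekly subcutaneous injections of 10 mg/kg anti-miR-22 ASO for 14 weeks, and the control group (CTRL) received 0.9% saline on the same schedule. The labels give an age of 30 weeks for both groups. Per the study's methods, all mice had passed 40 g before they were assigned to a group. The body weights it lists for the start of treatment include CTRL mice under 40 g and no ASO mouse under it. A difference in starting weight and the treatment therefore cannot be told apart here. There were 5 libraries per group, each from a mouse of its own. CTRL received no control oligonucleotide, so a response to an oligonucleotide as such and a response to loss of miR-22 cannot be told apart here.

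Libraries of polyadenylated RNA held between 1606909 and 2116720 counts in CTRL and between 2239186 and 2632560 with the ASO, so each treated library was deeper than each control. The counts lie on segments of up to 500 bp at annotated transcript ends, with all segments of a gene added up. Levels are CPM, the counts of a gene scaled by the library sizes of the fit, and errors are SDs over the 5 libraries of a group unless stated otherwise. Neither miR-22 nor its host transcript is counted, so the group labels could not be checked against the target of the ASO. Skeletal muscle markers were the most abundant of the cell type markers examined, with a summed level of 49657 to 98159 CPM in CTRL and 102013 to 164659 CPM with the ASO, although Mylpf and Tnnt3 had no count. In whole muscle, fewer cells of a type and less RNA per cell cannot be told apart.

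A MAPK cascade is a relay of kinases. Map4k and Map3k enzymes receive upstream signals and phosphorylate Map2k enzymes, and these phosphorylate the MAPK itself on a threonine and a tyrosine of its activation loop. The ERK arm (Map2k1 and Map2k2, then Mapk3 among others) is known for growth factor signaling, the JNK arm (Map2k4 and Map2k7, then Mapk8 to Mapk10) for stress and, in obese muscle, for interference with insulin signaling, and the ERK5 arm (Map2k5, then Mapk7) for muscle differentiation. Dusp enzymes named MAPK phosphatases remove both phosphates, whereas some atypical Dusp enzymes act on other proteins or on RNA.

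miR-22-3p pairs with transcripts through its seed, bases 2 to 8. The sequences below are shown because they mark the tested members that carry a match to this seed inside the counted segments. The mature sequence is from RefSeq (GRCm38.p6, chr11:75463772-75463793, plus strand), and the capitals mark the seed. The other lines are windows of 30 bases on the transcript strand of GRCm39, for which capitals mark the reverse complement of the seed, GGCAGCT.
miR-22-3p: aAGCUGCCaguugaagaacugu
Map3k3, chr11:106045871-106045900, plus strand: caagtcagggcacctggttctgGGCAGCTc
Dusp10, chr1:183807496-183807525, plus strand: agtgtgcagctgagggagagctGGCAGCTg
Dusp11, chr6:85919608-85919637, minus strand: ccctcccatcagcccagcccctGGCAGCTa
Only the transcript strand was searched. Among the 29 members that passed the filter on low counts, these 3 (10.3%) hold a match in a counted segment, as do 682 of all 7813 genes tested (8.73%). A second search took, per gene, the longest set of annotated 3′UTR blocks that start past the stop codon. Blocks that hold the stop codon were left out, so whole 3′UTRs were not covered. Such blocks were found for 20 of the 29 members and 6489 of all genes tested. Of these, 10 members (50%) and 2002 genes (30.9%) hold a match. The remaining members were not searched, although Dusp8 and Dusp23, among others, are counted in 3′UTR. This tally is therefore partial and does not describe whole 3′UTRs, and the difference was not tested. A match is a string of letters and not a measured site. The levels of Map3k3 and Dusp10 were lower with the ASO and that of Dusp11 was higher, as described with each gene.

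Among the 29 members tested, 15 (51.7%) differed between ASO and CTRL at an adjusted p-value under 0.05, against 29.2% of all genes tested. This edgeR adjusted p is from a quasi-likelihood test with the Benjamini-Hochberg procedure over all genes. The other 30 members were not tested, 20 because they fell below the filter on low counts and 10 because they had no count. Higher with the ASO were 6 members (20.7%, against 11.8% of all genes) and lower were 9 (31.0%, against 17.4% of all genes). The median log2 fold change was 0.11 over the members tested and −0.03 over all genes tested. The Map2k, Map3k and Dusp families each held both directions. The 5 ASO libraries lay entirely above the 5 CTRL libraries for 4 members (7.97% of all genes) and entirely below for 6 members (13.4% of all genes). For each of these 10 the two-sided exact permutation p was 0.0079, the smallest that 5 against 5 libraries allow. Separate groups always give this value, so it adds nothing to the separation itself.

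**Figure D1:**
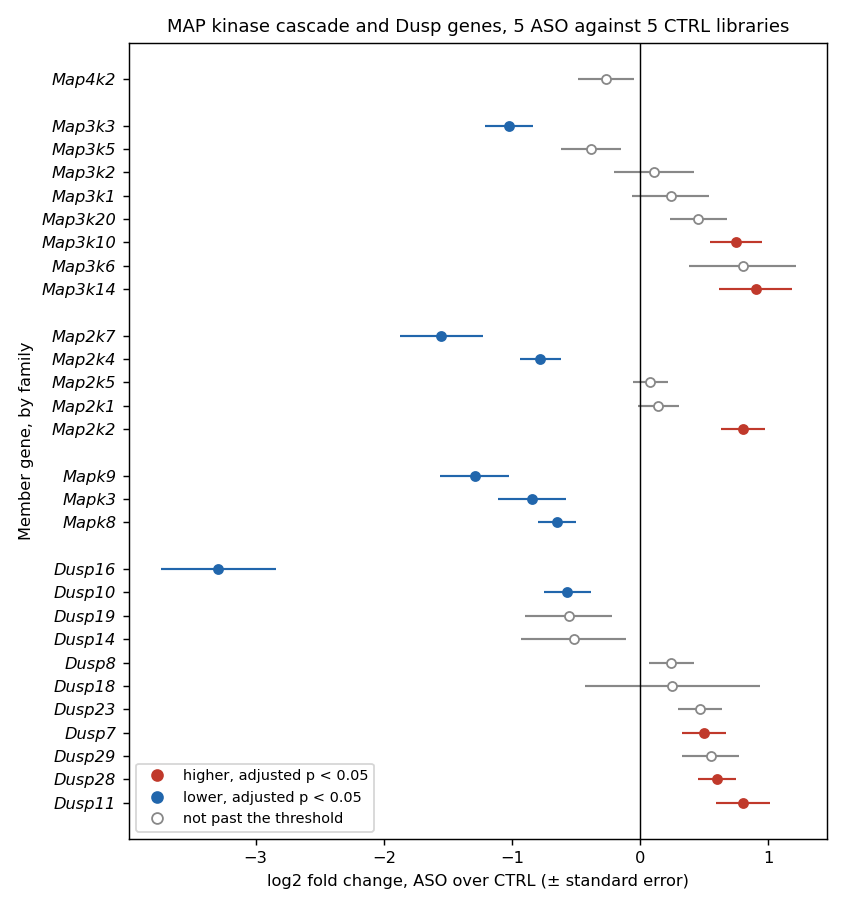
Log2 fold change of 28 members tested (x axis, ASO over CTRL, bars are standard errors of the fit), ordered by family and then by value, with filled points past an adjusted p of 0.05. Dusp16 stands at −3.29, far below the others, and the remaining values lie between −1.55 (Map2k7) and 0.90 (Map3k14).

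At the entry to the cascades, 1 of 5 Map4k genes and 8 of 18 Map3k genes passed edgeR's filter on low counts. Map4k2, a Ste20-type kinase above the JNK arm, was at 25.3 ± 8.01 CPM in CTRL and 21.0 ± 2.76 CPM with the ASO (n = 5 libraries each) and did not pass the threshold. Map3k3 (MEKK3, an activator of the ERK5 arm among others) fell. Map3k3 was at 43.9, 49.4, 45.5, 55.5 and 60.1 CPM in the 5 CTRL libraries and at 28.0, 32.3, 15.6, 23.8 and 24.99 CPM in the 5 ASO libraries. Every treated library was below every control. The log2 fold change was −1.03 (standard error 0.19, edgeR adjusted p = 0.0021). All counts of Map3k3 lie on the 500 bp at the end of its canonical transcript (chr11:106045773-106046272, plus strand, 3′UTR), which include the seed match shown above.

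Map3k10 (MLK2, a mixed-lineage kinase that feeds the JNK arm) and Map3k14 (NIK, the kinase of noncanonical NF-κB signaling) rose. Map3k10 was at 32.1, 29.8, 19.3, 37.8 and 35.4 CPM in CTRL and 64.7, 45.5, 46.5, 39.7 and 63.2 CPM with the ASO, without overlap between the groups. Its log2 fold change was 0.75 (standard error 0.20, edgeR adjusted p = 0.016). Its main segment, with 86.7% of the counts (chr7:27355800-27356088, minus strand), is covered over all 289 bp by exons of Ttc9b on the opposite strand. No strand option is given for the counting, so reads of the 2 genes cannot be told apart. Map3k14 was at 10.4, 24.2, 12.4, 11.2 and 16.3 CPM in CTRL and 18.8, 38.7, 31.7, 30.9 and 19.3 CPM with the ASO. CTRL replicate 2 lay inside the range of the treated libraries. The log2 fold change of Map3k14 was 0.90 (standard error 0.28, edgeR adjusted p = 0.031). The call was lost without any 1 of CTRL replicates 1, 3, 4 and 5 and ASO replicates 2 and 3, with adjusted p-values of 0.052 to 0.077 in the same test.

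The most abundant member by CPM was Map3k20, the stress kinase ZAK. Its level was 520.2 ± 148 CPM in CTRL and 713 ± 159 CPM with the ASO (n = 5 libraries each), a log2 fold change of 0.45 that did not pass the threshold (edgeR adjusted p = 0.14). The gene has a long and a short isoform with separate ends, and 99.6% of its counts lie on the end of the short one (chr2:72237347-72237846, plus strand), 35108 bp upstream of the end of the long one and within an intron of it. Between 688 and 1859 counts per library fell on the short end and between 3 and 10 on the long end. The stress kinases Map3k5 (ASK1) and Map3k6 (ASK2), Map3k1 (MEKK1) and Map3k2 (MEKK2) were at 6.29 to 15.3 CPM on average in CTRL, with log2 fold changes between −0.38 (Map3k5) and 0.80 (Map3k6), none past the threshold. The sum of Map3k5 joins 2 segments. Its canonical end was at 0.32 and did not pass. A segment of 90 bp, 1083 bp upstream and with 54.3% of the counts, was at −0.90 (edgeR adjusted p = 0.024 over single segments).

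The 5 Map2k genes were all tested, and the summed counts of the 2 activators of JNK fell. Map2k4 (MKK4) was at 291, 309, 289, 342 and 434 CPM in the CTRL libraries and 197, 202, 218, 146 and 206 CPM in the ASO libraries. The groups were separate, with a log2 fold change of −0.78 (standard error 0.16, edgeR adjusted p = 0.0036). The canonical end of Map2k4, with 51.5% of its counts, did not fall. Its log2 fold change was 0.28 and did not pass (edgeR adjusted p = 0.19 over single segments). Map2k7 (MKK7) was at 49.0, 56.4, 56.8, 90.3 and 119 CPM in CTRL and 43.5, 29.7, 16.1, 16.3 and 21.2 CPM with the ASO. Again no library of one group reached the other, and CTRL replicates 4 and 5 stood highest. The log2 fold change of Map2k7 was −1.55 (standard error 0.32, edgeR adjusted p = 0.0039). A segment that ends 1720 bp before the most distal end of Map2k7 holds 99.5% of its counts (chr8:4295678-4296177, plus strand) and lies where the gene Gm49320 is also annotated on the same strand. The segments at its most distal ends overlap one another and took 5 counts in all. No count of Map2k7 thus lies on a canonical end, and 40.1% of the other segments tested over all genes were lower.

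The activators of ERK and ERK5 gave other values. Map2k2 (MEK2) was at 182, 215, 146, 185 and 221 CPM in CTRL and 367, 292, 294, 266 and 435 CPM with the ASO. Every treated library exceeded every control, with a log2 fold change of 0.80 (standard error 0.17, edgeR adjusted p = 0.0045). Map2k1 (MEK1) was at 157, 225, 153, 158 and 142 CPM in CTRL and 186, 203, 216, 154 and 162 CPM with the ASO. Its groups overlapped, with a log2 fold change of 0.14 (standard error 0.16, edgeR adjusted p = 0.52) that did not exceed the spread of the libraries. Map2k5 (MEK5) had the tightest values of the family, at 34.0, 35.4, 32.1, 38.4 and 29.8 CPM in CTRL and 40.6, 39.5, 31.3, 31.7 and 36.3 CPM with the ASO, a log2 fold change of 0.08 (standard error 0.14). The difference between MEK1 and MEK2 in their response was not tested.

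Of the terminal kinases, the summed counts of Mapk3, Mapk8 and Mapk9 fell. Those of Mapk3 and Mapk9 lie off the canonical end, where 40.1% of the segments tested over all genes were lower. Mapk3 (ERK1) was at 28.3, 27.0, 55.3, 34.2 and 40.4 CPM in CTRL and 22.2, 19.5, 16.5, 31.7 and 12.7 CPM with the ASO. ASO replicate 4 overlapped CTRL replicates 1 and 2, and the log2 fold change was −0.85 (standard error 0.27, two-sided exact permutation p = 0.024, edgeR adjusted p = 0.030). Mapk3 lost its call without any 1 of CTRL replicates 3 and 5 and ASO replicates 1, 2, 3 and 5, with adjusted p-values of 0.052 to 0.079 in the same test. Its counts come from a segment of 79 bp that is coding sequence of the canonical transcript (chr7:126363939-126364017, plus strand), since the 500 bp at its most distal end are listed for 2 transcripts and took no count.

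Among the JNK genes, Mapk8 (JNK1) was at 164, 152, 123, 177 and 192 CPM in CTRL and 102, 104, 86.7, 125 and 96.2 CPM with the ASO. ASO replicate 4 was above the lowest control by a small margin, and the log2 fold change was −0.65 (standard error 0.15, two-sided exact permutation p = 0.016, edgeR adjusted p = 0.0071). Mapk9 (JNK2) was at 21.2, 21.5, 17.3, 24.2 and 35.4 CPM in CTRL and 10.6, 9.35, 5.08, 10.9 and 12.7 CPM with the ASO. Here the groups were separate, with a log2 fold change of −1.29 (standard error 0.27, edgeR adjusted p = 0.0040). A segment of 152 bp, mostly coding sequence of the canonical transcript, holds 89.1% of its counts (chr11:49773986-49774137, plus strand). The 4 identical segments at its most distal end took none. Mapk10 (JNK3, known chiefly from brain and heart) had 0 to 5 counts per library, and Mapk7 (ERK5) had no count. The 3 segments of Mapk7 have the same coordinates, and none of the 11480 segments of the table that share theirs with another held a count. Mapk4 and Mapk6 had 8 counts or fewer per library, at which a difference was not detectable.

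Of the phosphatases, Dusp16 (MKP-7, a MAPK phosphatase that prefers JNK and p38) changed most. Dusp16 was at 30.7, 26.1, 28.7, 33.0 and 64.0 CPM in CTRL and 0.966, 5.95, 2.54, 7.10 and 1.41 CPM with the ASO. The lowest control was far above the highest treated library, and CTRL replicate 5 stood above its group. The log2 fold change was −3.29 (standard error 0.45, edgeR adjusted p = 4.2e-04). Of these counts, 83.1% lie 2347 bp upstream of the most distal end, on a segment that is mostly coding sequence (chr6:134694778-134695277, minus strand), and 15.9% lie mostly in an intron. Both segments end transcripts annotated for nonsense-mediated decay, and reads in the former could also come from the full-length message. The 2 segments at the distal end of Dusp16, that of the canonical transcript included, overlap each other except for 5 bp each and took no count.

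Dusp10 (MKP-5, also a JNK and p38 phosphatase) was at 122, 106, 122, 127 and 68.0 CPM in CTRL and 79.2, 54.0, 82.9, 68.1 and 83.0 CPM with the ASO. CTRL replicate 5 lay inside the treated range, and the log2 fold change was −0.57 (standard error 0.19, edgeR adjusted p = 0.037). The call was lost when any library other than CTRL replicate 5 was left out, with adjusted p-values of 0.053 to 0.093 in the same test. Dusp10 was counted only on the end of its canonical transcript (chr1:183807334-183807833, plus strand, 3′UTR), with the seed match shown above. Dusp7 (an ERK-selective MAPK phosphatase) went the other way, from 34.9, 35.9, 42.0, 37.8 and 37.6 CPM in CTRL to 39.1, 68.8, 64.7, 43.0 and 50.5 CPM with the ASO. ASO replicates 2 and 3 stood well above the controls, whereas replicate 1 fell inside their range. The log2 fold change was 0.50 (standard error 0.17, edgeR adjusted p = 0.045). Without any 1 of the 5 CTRL replicates or ASO replicates 2, 3 and 5, Dusp7 was not past the threshold, with adjusted p-values of 0.051 to 0.092 in the same test. Dusp8, a phosphatase of JNK and p38, was at 77.8 ± 13.0 CPM in CTRL and 92.2 ± 20.1 CPM with the ASO (n = 5 libraries each), which did not pass.

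Among the atypical phosphatases, Dusp11 and Dusp28 rose. Dusp11 (PIR1, which removes phosphates from the 5′ end of RNA) was at 27.4, 43.4, 25.2, 36.6 and 56.2 CPM in CTRL and 61.3, 62.9, 78.7, 57.6 and 67.9 CPM with the ASO. The lowest treated library was just above the highest control. Its log2 fold change was 0.80 (standard error 0.21, edgeR adjusted p = 0.013), and 61.3% of its counts lie on the canonical end with the seed match shown above (chr6:85919250-85919749, minus strand). Dusp28 was at 109, 110.1, 82.5, 103 and 110.1 CPM in CTRL and 164, 134, 148, 136 and 199 CPM with the ASO, again without overlap. The log2 fold change of Dusp28 was 0.60 (standard error 0.15, edgeR adjusted p = 0.0091). Its segment (chr1:92835658-92836157, plus strand) shares 288 bp with exons annotated on the opposite strand.

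Dusp29, a phosphatase known from skeletal muscle, was at 136 ± 40.4 CPM in CTRL and 199.6 ± 45.9 CPM with the ASO (n = 5 libraries each). Dusp23 was at 161 ± 14.8 CPM and 223 ± 48.9 CPM, respectively (n = 5 libraries each). Neither passed the threshold, with edgeR adjusted p-values of 0.079 and 0.055. Dusp14 and Dusp19, near the lower limit of the filter, had log2 fold changes of −0.52 and −0.56 and did not pass. Among the 13 tested members counted on a single segment with at least 200 unshared bp, the level per kb of segment in CTRL was compared. It was highest for Dusp29 (346 ± 103 CPM per kb), Map2k1 (334 ± 66.0) and Dusp23 (323 ± 29.5), which do not differ beyond their spread. The lowest of them was Dusp19 at 23.5 ± 9.53 CPM per kb.

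**Figure D2:**
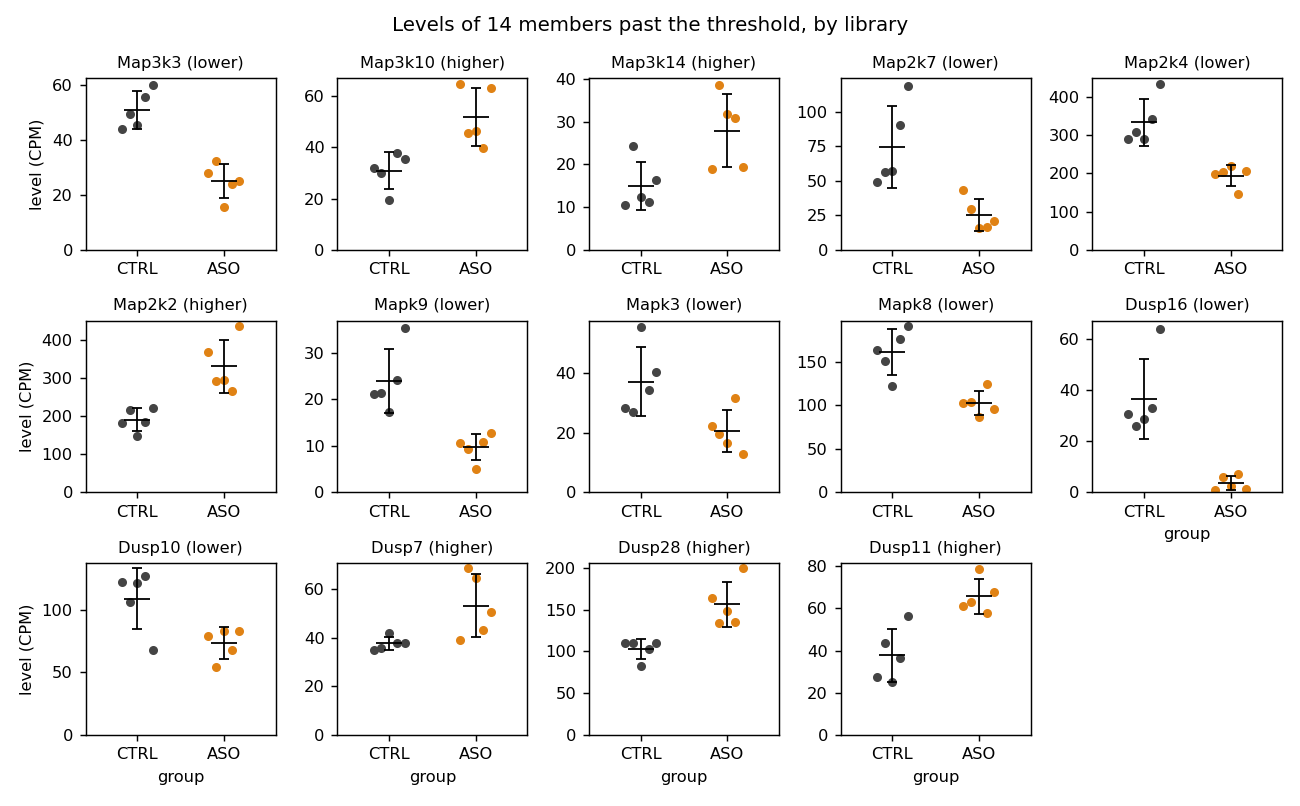
Level of 14 members past the threshold in each library (y axis, CPM, each panel from 0), with CTRL in grey and ASO in orange, and the mean ± SD of 5 libraries as a line with bars. Groups are separate in 9 panels, and overlap for Map3k14, Mapk3, Mapk8, Dusp10 and Dusp7.

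Since each annotated transcript end was counted on its own, the decreases could be placed along the genes. Segment usage, the change of a segment relative to the rest of its gene, differed in 4 of 8 members tested (edgeR diffSpliceDGE, Simes p, Benjamini-Hochberg adjusted), against 45.2% of the genes with several segments. Among them were Mapk8 (edgeR adjusted p = 4.2e-06), Map2k4 (4.0e-05) and Map3k10 (0.038), and those not past it were Map2k2, Map3k5, Dusp11 and Dusp18.

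The decrease of Map2k4 lay upstream of its canonical end. On the 500 bp of that end (chr11:65579069-65579568, minus strand, 3′UTR) the libraries held 283, 316, 201, 174 and 206 counts in CTRL and 275, 320, 423, 268 and 314 with the ASO, a log2 fold change of 0.28 that was not past the threshold (edgeR adjusted p = 0.19 over single segments). On the segment 2090 bp upstream, also 3′UTR of the gene, they held 243, 267, 251, 283 and 386 counts in CTRL and 97, 128, 77, 65 and 101 with the ASO, a log2 fold change of −1.81. The 2 intronic segments, 8045 and 23977 bp upstream, had log2 fold changes of −2.49 and −2.65. The canonical end took 36.9 ± 9.42% of the gene's counts in CTRL and 73.1 ± 6.34% with the ASO, without overlap (n = 5 libraries each, two-sided exact permutation p = 0.0079).

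Mapk8 showed the same order along the gene. The most distal segment, downstream of the canonical end, held 58, 73, 31, 48 and 39 counts in CTRL and 60, 49, 79, 63 and 66 with the ASO, with a log2 fold change of 0.19 that did not pass. The canonical end, 3151 bp upstream (chr14:33103006-33103505, minus strand, 3′UTR) and with 62.9% of the counts, had a log2 fold change of −0.49 (edgeR adjusted p = 0.040 over single segments). A segment in coding sequence, 4272 bp upstream, was at −1.62, and an intronic one, 15118 bp upstream, was at −3.09 on the log2 scale, from 31, 20, 34, 51 and 79 counts in CTRL to 10, 6, 3, 9 and 1 with the ASO.

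The members that rose differed in how their segments moved. Both larger segments of Map2k2, 10130 and 9278 bp upstream of its most distal end, rose with log2 fold changes of 0.85 and 0.88. The first, with 73.9% of the counts, lies mostly in an intron of the canonical transcript and ends a transcript annotated for nonsense-mediated decay. The second lies mostly downstream of the canonical transcript. None of the 5 segments of Map2k2 is that of the canonical transcript, so its own end has no value here. A smaller one, 10092 bp upstream and in the 3′UTR of the canonical transcript, was at −0.21 and did not pass. Its share of the counts of Map2k2 was 2.83 ± 0.788% in CTRL and 1.40 ± 0.475% with the ASO, without overlap (n = 5 libraries each, two-sided exact permutation p = 0.0079). The canonical end of Map3k10 rose by 0.97, whereas an intronic segment 11773 bp upstream was at −0.28 and did not pass. For Dusp11 the values were 0.97 at the canonical end, past the threshold, and 0.65 on an intronic segment, not past it.

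**Figure D3:**
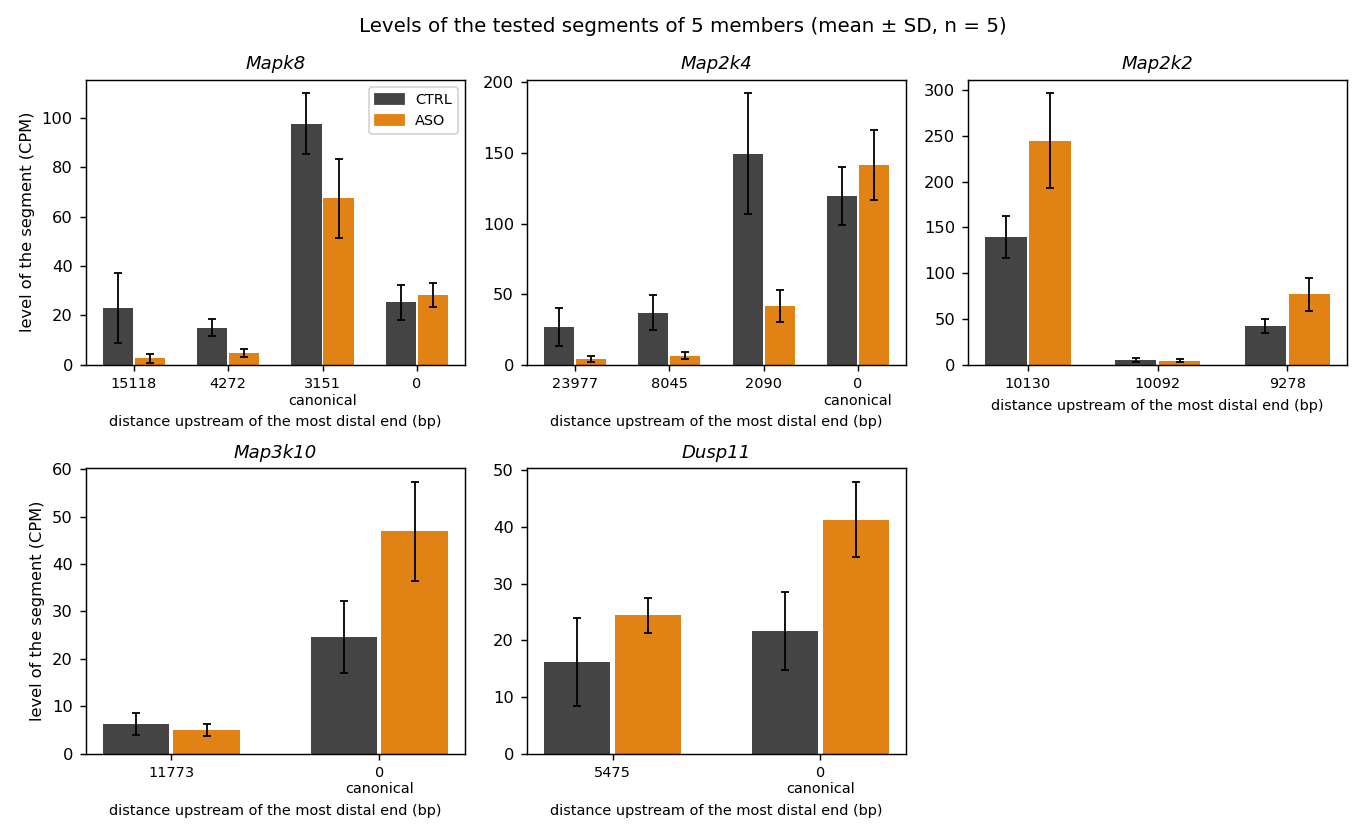
Mean level of each tested segment of 5 members (y axis, CPM, bars are SDs of 5 libraries), with CTRL in grey and ASO in orange. The x axis gives the distance in bp upstream of the most distal annotated end, and the word canonical marks the end of the canonical transcript. For Map2k4 and Mapk8 the upstream segments are lower with the ASO and the most distal one did not pass.

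Over all members, 22 segments at canonical ends and 22 other segments could be tested one by one. At canonical ends, 7 were higher and 3 lower (23.5% and 6.77% of such segments over all genes), and the median log2 fold change was 0.29 (0.27 over all genes). Elsewhere, 2 were higher and 13 lower (9.5% and 40.1% over all genes), with a median of −0.998 (−0.45 over all genes). The contrast between both kinds of segment is thus one of the whole table. The lower ends of canonical transcripts were those of Map3k3, Dusp10 and Mapk8. The higher ones included Dusp23 and Dusp29, whose log2 fold changes of 0.51 and 0.59 passed in this fit (edgeR adjusted p = 0.034 and 0.048 over single segments). Summed per gene, 20 members had more than 50% of their counts at the canonical end, of which 5 were higher and 4 lower (15.4% and 8.04% of such genes in the table). The other 9 held 1 higher and 5 lower member (7.33% and 28.9% of such genes). With each gene reduced to its most distal segment, 21 members could be tested, of which none was higher and 3 were lower, Map3k3 and Dusp10 among them (4.56% and 6.59% of all genes in that fit). With the library sizes of all segments in place of those of the distal ones, 4 were higher (Map3k10, Map3k14, Dusp11 and Dusp28) and the same 3 lower (18.3% and 4.03% of all genes in that fit). Mapk3, Mapk9, Map2k2, Map2k7 and Dusp16 have too few counts there.

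**Figure D4:**
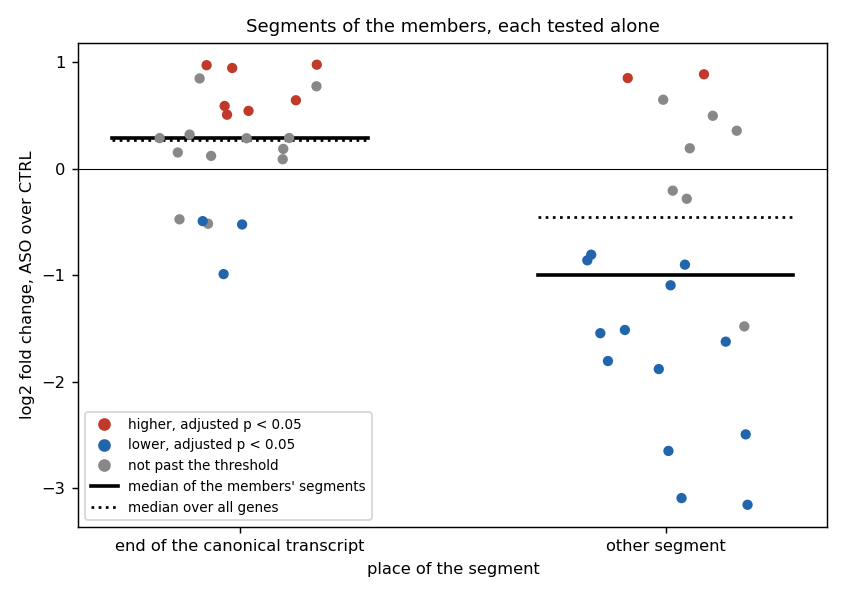
Log2 fold change (y axis, ASO over CTRL) of each of 44 segments of the members, tested alone, at the end of the canonical transcript (left) and elsewhere (right), colored by the call. Solid lines are the medians of the members' segments, 0.29 and −0.998, and dotted lines those over all genes, 0.27 and −0.45.

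Markers of other cells were counted beside the members. Of the muscle markers, 3 of 5 tested (Ckm, Actn3 and Tnnc2) were higher and none was lower. Among macrophage markers 1 of 6 tested was lower (Mrc1) and none higher, with summed levels of 261 to 1609 CPM in CTRL and 74.0 to 575 CPM with the ASO, and no count for Adgre1 and Cd163. Among fibroblast markers 1 of 4 tested was lower (Lum), with sums of 247 to 489 CPM and 70.7 to 469 CPM, respectively, and no count for Dcn. Adipocyte markers had sums of 846 to 13744 CPM in CTRL and 721 to 3758 CPM with the ASO, and none of the 6 passed. No marker of endothelial, Schwann, satellite or red blood cells passed the threshold. The part of these cells in the members' values was not tested.

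Dusp18, an atypical phosphatase, varied more between libraries than between groups. Its level was 141, 21.0, 34.1, 46.6 and 20.2 CPM in CTRL and 20.3, 14.0, 43.1, 178 and 58.0 CPM with the ASO. CTRL replicate 1 and ASO replicate 4 stood apart. Myh7, the slow myosin heavy chain, was at 63.7, 6.99, 6.42, 22.4 and 0 CPM in CTRL and 0, 0, 42.3, 268 and 9.90 CPM with the ASO, with its highest values in the same 2 libraries. No relation was tested. The split of Dusp18 between its segments did not overlap between the groups. Its most distal end took 58.2 ± 14.0% of the counts in CTRL and 88.5 ± 4.18% with the ASO (n = 5 libraries each, two-sided exact permutation p = 0.0079), whereas the segment usage test did not pass (edgeR adjusted p = 0.29).

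Among the 30 members not tested, those at 0 need not be silent. For 9 of the 10 without a count (Mapk7, Mapk15, Map3k4, Map3k7, Map4k3, Map4k5, Dusp1, Dusp6 and Dusp26) at most 5 bp of their segments are free of overlap with other segments, and reads there were not assigned. Dusp1 and Dusp6, MAPK phosphatases that are induced early by the pathway itself, therefore have no value. Map3k19 was the other, with 454 unshared bp. Of the 20 counted members below the filter, Map3k8, Map3k9, Map3k21, Dusp9, Dusp21 and Dusp22 had 2 to 9 counts over all 10 libraries. Mapk4, Mapk6, Mapk10, Map3k11, Map3k12, Map3k13, Map3k15, Map4k1, Map4k4, Dusp2, Dusp4, Dusp5, Dusp12 and Dusp15 had 14 to 82. At most 44 unshared bp stood behind the counts of Map3k8, Map3k11, Map4k4 and Mapk6, so their low counts say little of their levels. Within this group, Dusp4 (MKP-2, a nuclear MAPK phosphatase) is named because it alone was called in fits that kept low genes. Its libraries held 7, 10, 28, 6 and 10 counts in CTRL and 1, 2, 3, 2 and 0 counts with the ASO. Every treated library was below every control (edgeR adjusted p = 0.0037 without the filter, a fit in which 9.54% of all genes were lower).

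The genes around the cascades were counted in 6 lists of 85 genes, of which 55 were tested, 3 were higher and 15 lower (11.8% and 17.4% of all genes). Their median log2 fold change was −0.06. Upstream, 6 of 15 tested genes were lower and none higher, against 17.4% lower and 11.8% higher of all genes. They were the receptor Egfr (−1.06 on the log2 scale), the adaptors Grb2 (−0.58) and Shc1 (−1.09), the small GTPases Nras (−0.76) and Rap1b (−1.19), and Rasa1 (−0.74), a GTPase-activating protein of Ras. The most distal segment holds 74.7% of the counts of Egfr, 33.1% for Rap1b, 19.6% for Rasa1 and none for Grb2, Shc1 and Nras. By a related division, 28.9% of all genes with most counts off the canonical end were lower. The part of segment position in these decreases was not tested. Of the 11 scaffolds tested, Arrb1 (−2.35), Shoc2 (−1.05) and Lamtor3 (−0.55) fell and Tab2, which activates Map3k7, rose (0.66). Spry2 (−0.55), a feedback inhibitor of receptor signaling, was the 1 of 5 inhibitors that passed.

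Downstream, Mapkapk2, a substrate kinase of p38, rose by 0.95 on the log2 scale, from 375 ± 96.0 to 727 ± 119 CPM (n = 5 libraries each). Mapkapk5 (−0.91) and Rps6ka5 (−1.09), the kinase MSK1, fell, and 5 of 8 effector kinases did not pass. Of 10 transcription factors and early genes tested, Egr1 (−1.90), an early gene induced by ERK, and Atf2 (−1.43), a target of JNK and p38, fell, and Elk4 (0.57), a target of ERK, rose. The groups of Egr1 overlapped, at 20.8 to 248 CPM in CTRL and 16.9 to 60.4 CPM with the ASO. Fos, Junb and Ier2, also early genes, did not pass. The edgeR adjusted p-values of the 18 pathway genes that passed were between 0.0010 and 0.040. For Grb2, Shc1, Nras, Arrb1, Shoc2, Mapkapk5 and Atf2, no count lies on the most distal segment. Of the p38 genes set aside by the rule, Mapk14 (−2.51) and Dusp3 (−2.16) were lower and Mapk12 (0.65) was higher, 3 were tested and did not pass, and Mapk13 was not tested. No count of Mapk14 or Dusp3 lies on the most distal segment, whereas all counts of Mapk12 do.

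**Figure D5:**
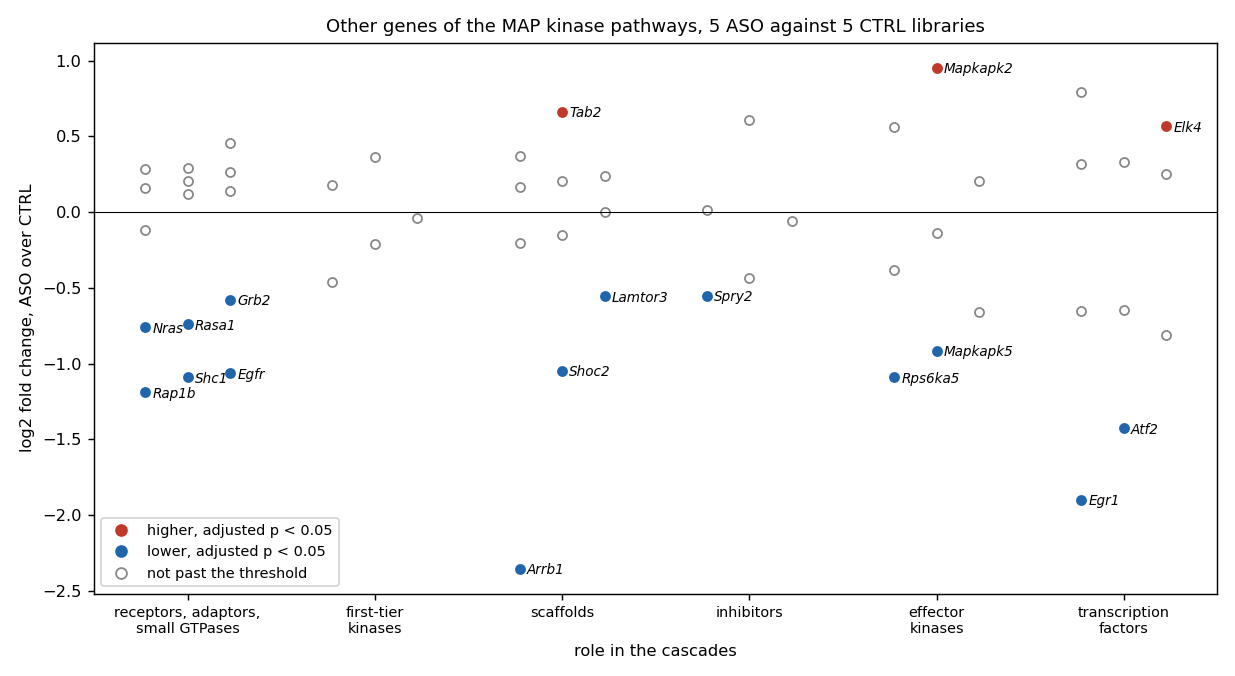
Log2 fold change (y axis, ASO over CTRL) of 54 other genes of the MAPK pathways, grouped by role, with filled and named points past an adjusted p of 0.05. The 14 lower genes lie between −2.35 (Arrb1) and −0.55 (Spry2), and the 3 higher ones are Tab2, Mapkapk2 and Elk4.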

How the data were processed

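Poly(A) RNA of 10 GAS samples was sequenced by the study. The authors deposited raw read-pair counts per segment, at most the last 500 bp of each annotated transcript, for 52423 segments. The submitters' processing notes name fastp, STAR, featureCounts and GRCm39. No strand option is given, and no count stands on the 11480 segments that have the coordinates of another one, so genes whose ends coincide read 0. Here, transcript IDs were mapped to genes with GENCODE M39 (62 segments with 0.0197% of the counts did not map), and segments were summed per gene. Of the table, 4 columns of values that match no sample of the series were not used.

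ASO was compared with CTRL by the quasi-likelihood test of edgeR 4.0.16 (R 4.3.3) with TMM scaling and the default filterByExpr by group, which left 7813 genes. Standard errors are the log2 fold change over the root of F. Exact permutation tests used log2(CPM + 1). Segment usage was tested with diffSpliceDGE, and each segment was also tested alone, a step added after seeing the data. Alternatives used DESeq2 1.42.0, ashr 2.2.63, voom (limma 3.58.1), other scalings and filters, a replicate block, the most distal segment, equal depth and each library left out. The fits were tested on simulated counts. Libraries of 1606909 to 2632560 counts make a count of 3 worth at most 1.77 CPM, and such limits cover counting error only.

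Members and gene lists were chosen with earlier results of these data known. Members past the threshold and the core ERK, JNK and ERK5 kinases were named with every library, and pathway genes where they passed, at most 8 per list. Sequences were shown for tested members with a seed match in a counted segment. Segments were classed by the GENCODE M39 canonical transcript. Some genes that the counts include are not reported here.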

Additional observations from a re-analysis of the deposited data

Results flagged for a closer look

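In each group of 5 libraries, the gap of the highest or lowest library to its neighbor was divided by the range of the group and compared with Dixon's critical value of 0.71. Of 58 groups (29 members in CTRL and ASO), 6 exceeded it, and chance alone gives about 1 in 20. In CTRL, Map2k1 was highest in replicate 2, at 225 CPM against 158 CPM in the next library (ratio 0.801). Dusp16 was highest in CTRL replicate 5, at 64.0 CPM against 33.0 CPM (ratio 0.817), and its decrease with the ASO passed the threshold without that library. Dusp28 was lowest in CTRL replicate 3, at 82.5 CPM against 103 CPM (ratio 0.752). Dusp18 stood apart in both groups, in CTRL replicate 1 with 141 CPM against 46.6 CPM (ratio 0.782) and in ASO replicate 4 with 178 CPM against 58.0 CPM (ratio 0.732). In the same ASO replicate 4, Dusp23 was lowest, at 137 CPM against 232 CPM (ratio 0.804).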

How the results depend on the processing

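Leaving out 1 library at a time gave 4 to 8 higher and 7 to 8 lower members, a median log2 fold change of −0.0288 (without ASO replicate 4) to 0.1804 (without CTRL replicate 1), 3 to 4 higher and 12 to 16 lower pathway genes, and 3 to 4 members with changed segment usage. The 11 members called apart from Mapk3, Map3k14, Dusp7 and Dusp10 passed in each of these fits. Scaling by total counts gave a median of −0.0670 and 4 higher against 9 lower members, and upper quartile scaling 0.1948 and 8 against 8. These scalings moved the median of all genes by −0.18 and 0.09. With at least 10 counts in every library, segment usage differed in 2 members.

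With the most distal segment alone, where Mapk3, Mapk9, Map2k2, Map2k7 and Dusp16 could not be tested, 0 members were higher and 3 lower (Map3k3 and Dusp10 among them), at a median of −0.0464, and 7 pathway genes were lower. On the library sizes of all segments, a setting added after seeing the data, 3 members were lower at a median of 0.2441, and 6 pathway genes were higher and 3 lower. There Mapk8 (0.1454) and Map2k4 (0.2407) changed sign, and the median of all genes moved by 0.29. With the library sizes of the distal segments they were at −0.1379 and −0.0479. The cause was not tested.

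With the replicate number as a block, 6 members were higher and 7 lower, segment usage differed in 4, and Mapk3, Dusp7 and Dusp10 were not called, whereas no other called member lost its call. The numbers share no stated origin. Deviations of same-numbered libraries correlated between −0.43 and 0.16, and only number 4 was its own best match, so no pairing was used. The filter left out 20 counted members, and without it, as in DESeq2, 1 of them (Dusp4) was called.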
